A study of Mus musculus with 12 samples.

Results

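Reactive astrocyte genes are described here through 10 genes that brain astrocytes are known to raise after injury or that sit in the signalling that drives this response: Gfap, Vim, Serpina3n, Lcn2, Cd44, Osmr, Aspg, Steap4, S1pr3 and Stat3. They were found by gene name among the 25749 genes of the deposited tables. All 10 were present, and all 10 passed the filter on low counts that left 14771 genes for testing.

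The RNA came from the brains of 12 B6 mice, all male and 13 weeks old, with 1 library per mouse and 4 mice in each of 3 groups. Uninjured mice served as the baseline. Injured mice had an injury that the series title calls cerebrovascular, and the third group was injured and received continuous αLFA1/VLA4, which is named for 2 integrins that leukocytes use to leave blood vessels. Tissue of the injured mice was taken on day 20 after injury as a cube with edges of 3 mm. No control antibody is named in the labels, so the agent and the act of giving it cannot be told apart. The same uninjured mice are the baseline of 2 of the 3 comparisons and the same injured mice enter 2 of them, so the comparisons are not independent of one another.

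Astrocytes respond to damage, bleeding and inflammation by enlarging, by building more intermediate filament and by secreting protease inhibitors, iron-binding proteins and complement. Cytokines of the interleukin-6 family, which signal through the shared receptor chain gp130 and the kinases of the JAK family, drive much of this response by way of the transcription factor STAT3. Several of these genes are not restricted to astrocytes: leukocytes, fibroblasts, endothelium and ependyma also make Vim, Cd44 or Lcn2.

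Most members rose in both injured groups, but they did not share one pattern. The members were chosen with earlier results of these data known. Their counts beside the shares of all genes are therefore a description and not a test. In injured against uninjured mice 6 members rose and none fell (Gfap, Vim, Serpina3n, Lcn2, Aspg and S1pr3), where 11.9% of all tested genes were called higher and 11.0% lower by edgeR's quasi-likelihood test with Benjamini-Hochberg adjustment at 0.05. In αLFA1/VLA4-treated injured against uninjured mice 8 members rose and none fell (all but Osmr and Stat3), against 6.30% of genes higher and 3.22% lower. In treated against untreated injured mice 6 members rose (Vim, Serpina3n, Lcn2, Cd44, Osmr and Steap4) and 1 fell (Aspg), against 10.9% of genes higher and 10.7% lower. The median log2 fold change of the 10 members in these comparisons was 0.65, 1.06 and 0.38, where the median of all tested genes was 0.03, 0.01 and 0.01. Counted by library, 8 members in the first comparison lay higher in every injured mouse than in any uninjured mouse, where 17.4% of genes did so, and none lay lower, as 12.9% of genes did. The corresponding counts were 9 members higher against 9.01% of genes and none lower against 6.56% in the second and 5 members higher against 10.6% in the third, where Aspg alone was lower without overlap, as were 11.4% of genes. At an unadjusted p under 0.05 and with DESeq2, the number lower was also 0 in the first 2 comparisons and 1 in the third. The counts of members higher rest on exon reads, and they were 3, 4 and 2 when only reads across exon junctions were used, where 0.402%, 2.15% and 2.75% of the 11954 genes tested were called higher. In this smaller set of reads all members but Steap4 and S1pr3 could be tested.

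**Figure D1:**
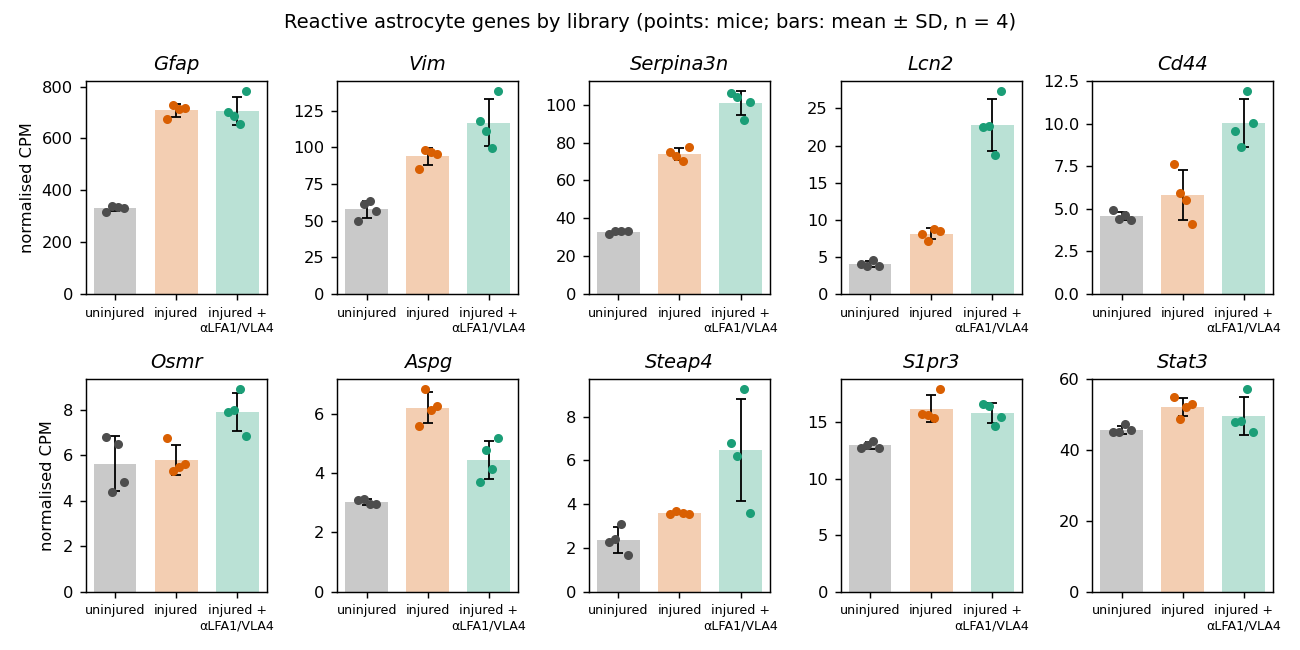
Normalised CPM (exon reads scaled to the effective library size from TMM, y axis from 0, each panel with its own range) of the 10 genes in the 12 mice. Points are mice, in the order of replicates 1 to 4 from left to right, and bars with lines are the mean ± SD of 4. Gfap stood at the same mean level in both injured groups (708 and 707 CPM), Lcn2 stepped up in each injured group, and Aspg was highest in untreated injured mice.

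**Figure D2:**
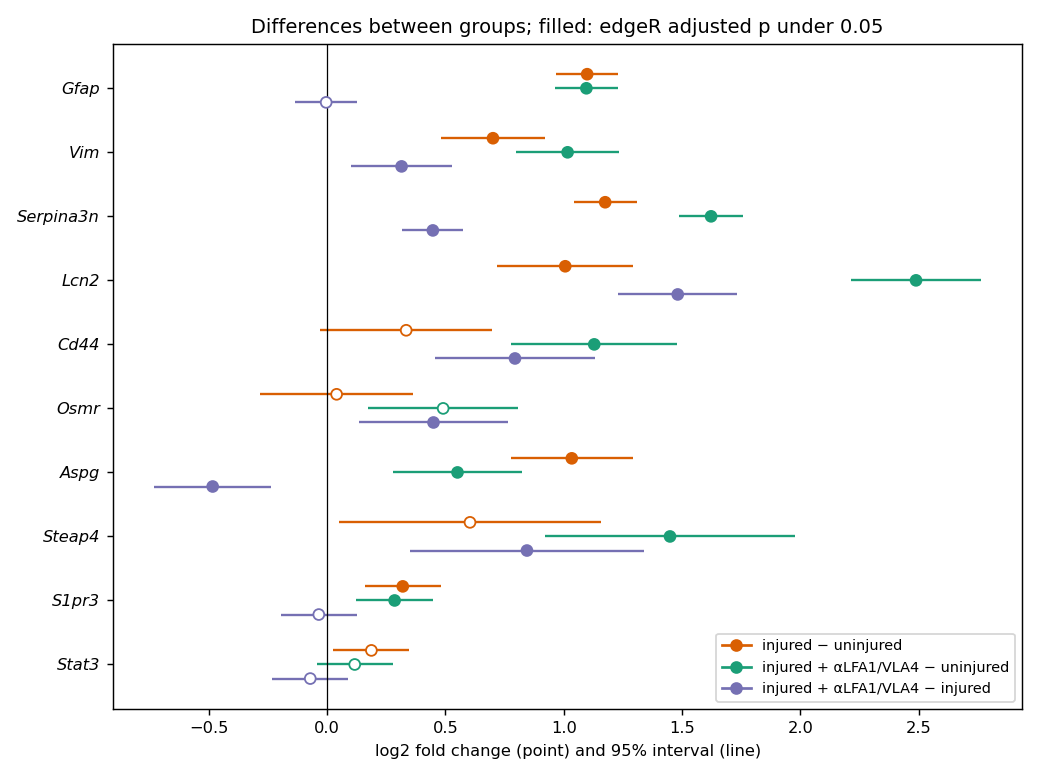
Log2 fold change (x axis) of each gene in the 3 comparisons, with its 95% interval as a line and filled points where the edgeR adjusted p was under 0.05. Lcn2 had the largest fold change of the 10 genes in both comparisons with the treated group (2.49 and 1.48), and Stat3 had no filled point.

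Depth and composition differed between the groups. Exon reads per library ranged from 15159988 to 15781229 in uninjured, 15507462 to 16121577 in injured and 13330379 to 13917157 in treated mice, and reads from the mitochondrial genome made up 10.3 to 12.01%, 4.75 to 7.99% and 8.83 to 11.01% of them. On the first principal component uninjured replicate 1 and treated replicate 4 lay farthest apart, and without both of them 6, 7 and 6 members were called higher in the 3 comparisons, where 8.69%, 3.49% and 13.9% of genes were. The tissue label was checked on 18 genes of resting astrocytes, of which all 18 were detected, with a summed level of 4781 to 5064 TPM (a level per transcript length) in uninjured, 5502 to 6407 in injured and 4860 to 5334 in treated mice. Marker genes of muscle, fibroblasts and thalamus differed between the groups. The sum over 8 skeletal muscle genes was 14.3 to 20.1 TPM in uninjured, 20.6 to 27.0 in injured and 129 to 168 in treated mice. The sum over 10 fibroblast genes was 61.1 to 69.0, 79.1 to 95.3 and 217 to 271 TPM in the same order. The sum over 8 genes enriched in the thalamus was 110 to 117, 184 to 202 and 158 to 178 TPM, lower in every uninjured mouse than in any injured or treated one. The TPM scale itself shifted, with a median log2 change over all tested genes of 0.18 after injury and -0.15 between the injured groups (pseudocount 0.1). By edgeR the median log2 fold change of the 18 astrocyte genes was 0.19 and -0.03 in the same comparisons. The part of these marker differences in the members' changes was not tested. In bulk tissue, more astrocytes and more RNA per astrocyte cannot be told apart.

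Both filament genes rose after injury. Gfap, the glial fibrillary acidic protein and a standard marker of reactive astrocytes, had the highest level of the members in every group. Its normalised CPM (exon reads scaled to the effective library size from TMM) was 315, 339.8, 336 and 332 in the uninjured mice, 674, 731, 712 and 717 in the injured mice and 702, 688, 656 and 782 in the treated mice. Both injured groups lay above every uninjured mouse and overlapped with each other. Gfap rose 2.14-fold both after injury (SE 0.06 on the log2 scale, edgeR adjusted p = 4.18e-07) and in treated mice (SE 0.06, edgeR adjusted p = 6.98e-08), each against uninjured mice. Between the treated and untreated injured mice the difference was -0.00 (95% interval -0.13 to 0.13, edgeR adjusted p = 0.977), so ratios under 0.911 and over 1.09 lie outside the interval of this fit.

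How the Gfap reads were counted changed that last comparison. On the TPM scale Gfap was 439.8 to 504 in injured and 402 to 437 in treated mice, lower without overlap, on a scale where the median of all genes also shifted by -0.15. With the trend of each library with GC content and transcript length removed, Gfap was 0.17 higher in treated mice (edgeR adjusted p = 0.0291). Counted only by reads that cross an exon junction it was -0.18 (edgeR adjusted p = 0.170). Scaled to the junction reads of each library, its junction reads numbered 287 to 316 in uninjured, 624 to 652 in injured and 487 to 584 in treated mice (CPM of junction reads), so by this measure every treated mouse lay below every injured mouse and above every uninjured one. The rise over uninjured mice passed in all these settings, and the comparison between the injured groups has no stable direction.

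Junction reads made up a smaller share of the Gfap exon reads in treated mice. The share was 22.3 to 25.4% in uninjured and 24.0 to 26.4% in injured mice, and 18.6, 19.8, 22.6 and 14.1% in the 4 treated mice. Over all genes the share was 25.2 to 26.2%, 27.5 to 30.9% and 22.6 to 25.7%, and treated replicate 4 was lowest both for Gfap and over all genes. Stat3 followed the same order of treated mice, with 19.3, 25.9, 32.1 and 16.2%, whereas Vim stayed at 49.0 to 52.9% in them. The part of these shares in the members' changes was not tested.

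**Figure D3:**
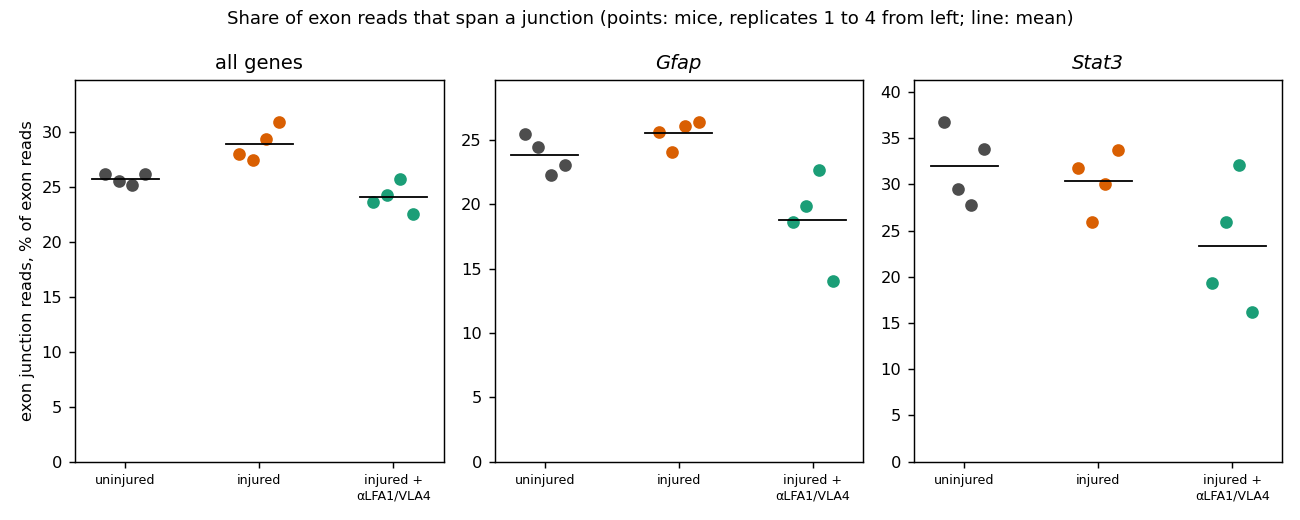
Exon reads that cross an exon junction, in percent of exon reads (y axis from 0), over all genes and for Gfap and Stat3. Points are mice, replicates 1 to 4 from left to right in each group, and lines are group means. Treated replicate 4 was the lowest of the 12 mice in all 3 panels (22.6, 14.1 and 16.2%).

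Vim, vimentin, is the second filament protein of reactive astrocytes and is also made by endothelium, fibroblasts and leukocytes. Its normalised CPM was 49.7, 61.1, 63.2 and 56.8 in uninjured, 85.1, 97.8, 96.9 and 95.4 in injured and 118, 111, 99.6 and 138 in treated mice. The groups formed 3 steps without overlap, although the lowest treated mouse lay close to the highest injured one. Vim rose by 0.70 after injury (SE 0.10, edgeR adjusted p = 0.00146) and by 1.02 in treated mice (SE 0.10, edgeR adjusted p = 2.69e-05), although the first did not pass with junction reads (0.65, edgeR adjusted p = 0.128). The step between the injured groups was 0.32 (SE 0.10, edgeR adjusted p = 0.0388), and it is fragile. It no longer passed at 0.22 to 0.35 when uninjured replicate 2 or 4, any 1 injured mouse or treated replicate 1, 2 or 4 was left out (0.22 without treated replicate 4). It was also lost in 9 of 15 other settings of scaling, filter, tool and kind of read, at 0.15 to 0.62, among them the removed GC and length trend, where it was 0.17 (edgeR adjusted p = 0.0673). Of 6 other intermediate filament and linker genes, 1 rose after injury, 1 rose in treated against uninjured mice, and 1 rose and 1 fell between the injured groups. Des, desmin, the filament of muscle and mural cells, went from 3.96 ± 0.399 (SD, n = 4) CPM in injured to 9.59 ± 1.97 in treated mice. The log2 difference was 1.27 (SE 0.19, edgeR adjusted p = 0.000868), in libraries where the muscle genes above were also high.

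Secreted proteins showed the clearest steps. Serpina3n, a serine protease inhibitor made by reactive astrocytes, was among the most sharply separated genes of the experiment. Its normalised CPM was 31.5, 33.2, 33.1 and 33.2 in uninjured, 74.8, 73.1, 70.3 and 77.6 in injured and 106, 104, 91.96 and 101 in treated mice. No group overlapped with another. It rose 2.26-fold after injury (log2 fold change 1.18, SE 0.06, edgeR adjusted p = 3.35e-07), the second smallest p of all tested genes. It was 1.62 above uninjured mice with treatment (SE 0.06, edgeR adjusted p = 1.78e-09) and 0.45 above injured mice (SE 0.06, edgeR adjusted p = 0.000359). The mouse genome carries near-identical Serpina3 copies, and 9 of them in the tables held 24, 40 and 65 reads over the 4 libraries of each group, against 1966, 4829 and 5558 reads for Serpina3n. Of the Serpina3n reads 99.8% were unique, and for the other 9 members 100%.

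Lcn2, lipocalin 2, binds iron-carrying siderophores and is secreted by reactive astrocytes and by neutrophils. Its normalised CPM was 4.03, 3.78, 4.63 and 3.76 in uninjured, 8.15, 7.10, 8.79 and 8.52 in injured and 22.5, 22.6, 18.7 and 27.3 in treated mice. The 3 groups did not overlap, and the lowest treated mouse had more than the highest injured one by a wide margin. Lcn2 rose 2.01-fold after injury (log2 fold change 1.01, SE 0.13, edgeR adjusted p = 0.000888), which did not pass with junction reads (0.78, edgeR adjusted p = 0.118). It was 5.61-fold above uninjured mice with treatment (2.49, SE 0.13, edgeR adjusted p = 2.92e-08) and 2.79-fold above injured mice (1.48, SE 0.12, edgeR adjusted p = 5.23e-06), and both kept their call when only junction reads were used, at 2.54 and 1.76.

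Neutrophil genes are given beside Lcn2 because neutrophils also make it. Of 12 neutrophil genes 5 could be tested, and 4 of these (S100a8, S100a9, Ltf and Ngp) passed the filter on low counts only through the treated mice, which by itself favours a higher call there. The 5 were called higher in both comparisons with treated mice, and none was called after injury alone by edgeR, by DESeq2 or at an unadjusted p under 0.05. The summed level of all 12 neutrophil genes, tested or not, was 4.69 to 6.49 TPM in uninjured, 8.16 to 9.58 in injured and 38.5 to 62.0 in treated mice. S100a9, a calcium-binding protein abundant in neutrophils and monocytes, went from 0.610 ± 0.263 (SD, n = 4) to 4.77 ± 1.06 CPM between the injured groups, a log2 difference of 2.94 (SE 0.26, edgeR adjusted p = 1.49e-05), and S100a8 from 0.493 ± 0.144 to 4.13 ± 1.51 (difference 3.05, SE 0.34, edgeR adjusted p = 0.0001). The neutrophil marker Ly6g had no read in any library, and Mpo had 8, 3 and 4 reads per group. The share of Lcn2 that came from such cells was not tested. Of its 2 known receptors, Slc22a17 was 521 ± 38.8 (SD, n = 4), 680 ± 44.1 and 575 ± 55.9 CPM in the 3 groups. It rose after injury (0.38, SE 0.08, edgeR adjusted p = 0.00823) and was lower with treatment (-0.24, SE 0.08, edgeR adjusted p = 0.045). With the GC and length trend removed neither passed, at 0.11 (edgeR adjusted p = 0.0619) and -0.064 (edgeR adjusted p = 0.267). The second was also lost, at -0.27 to -0.18, when uninjured replicate 2 or 4, injured replicate 1, 2 or 4 or treated replicate 1, 2 or 3 was left out, and in 6 of 15 other settings in all.

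Among the members are 3 surface receptors, Cd44, Osmr and S1pr3. Cd44, the receptor for hyaluronan, was 4.91, 4.43, 4.63 and 4.36 CPM in uninjured, 7.64, 5.91, 5.54 and 4.08 in injured and 9.55, 8.61, 11.9 and 10.1 in treated mice. Injured mice ranged from below the uninjured level to well above it, and every treated mouse lay above both other groups. The difference after injury was 0.33 (SE 0.17, edgeR adjusted p = 0.154). Cd44 was higher in treated than in uninjured mice by 1.13 (SE 0.16, edgeR adjusted p = 0.000591) and than in injured mice by 0.79 (SE 0.16, edgeR adjusted p = 0.00397).

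Cd44 was also the member with most reads outside exons. Introns held 75.8% of its gene reads over all libraries, against 27.4% for Aspg, 6.28% for Osmr and less for the others. Its intron reads were 338, 299, 294 and 411 in uninjured, 242, 304, 222 and 171 in injured and 385, 410, 321 and 370 in treated mice. The intron reads were thus not lowest in uninjured mice, unlike the exon reads. Junction reads, which come from spliced RNA alone, were 14, 6, 8 and 8 in uninjured, 17, 11, 18 and 8 in injured and 9, 12, 20 and 3 in treated mice. These overlapped in all 3 groups, and neither call on Cd44 remained with junction reads (0.59, edgeR adjusted p = 0.353, against uninjured and 0.20, edgeR adjusted p = 0.815, against injured). None of the 9 tested genes of hyaluronan synthesis, breakdown and Cd44 anchoring was called in any comparison by edgeR or DESeq2, and 2, 1 and 2 of them had an unadjusted p under 0.05. The hyaluronan synthase Has2 had 22, 15 and 16 reads per group.

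Osmr, the receptor subunit for oncostatin M, pairs with gp130 and signals to STAT3. Its normalised CPM was 6.79, 4.37, 6.51 and 4.83 in uninjured, 6.75, 5.29, 5.48 and 5.62 in injured and 7.87, 7.97, 8.91 and 6.83 in treated mice. Uninjured and injured mice overlapped, with a difference of 0.04 (SE 0.15, edgeR adjusted p = 0.863). Each treated mouse lay above both groups, replicate 4 only just, at 6.83 against at most 6.79. The difference passed against injured mice (0.45, SE 0.15, edgeR adjusted p = 0.0426) and not against uninjured mice (0.49, SE 0.15, edgeR adjusted p = 0.0532). Both values sit at the threshold: the call against injured mice was lost, at 0.40 to 0.46, when uninjured replicate 4, injured replicate 2, 3 or 4 or treated replicate 1, 2 or 3 was left out. The other was gained, at 0.55 to 0.59, when uninjured replicate 1 or 3 or treated replicate 4 was left out. In other settings the first was lost in 6 of 15, at 0.22 to 0.47, and the second gained in 7 of 15, at 0.48 to 0.64.

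S1pr3, a receptor for sphingosine 1-phosphate, had normalised CPM of 12.7, 12.97, 13.4 and 12.7 in uninjured, 15.7, 15.6, 15.4 and 17.9 in injured and 16.6, 16.4, 14.7 and 15.5 in treated mice. Both injured groups lay above all uninjured mice and overlapped with each other. It rose by 0.32 after injury (SE 0.07, edgeR adjusted p = 0.0127) and by 0.29 in treated mice (SE 0.08, edgeR adjusted p = 0.0319), the latter lost, at 0.26 to 0.30, when any 1 uninjured mouse or treated replicate 1, 2 or 4 was left out and, at 0.26 to 0.29, in 7 of 14 other settings. The difference between the injured groups was -0.03 (95% interval -0.19 to 0.13, edgeR adjusted p = 0.779). Of 10 other genes of this lipid pathway, 3 rose and 2 fell after injury, 1 rose in treated against uninjured mice, and 2 rose and 1 fell between the injured groups. Sphk1, a kinase that makes the ligand, rose in injured mice (0.76, SE 0.16, edgeR adjusted p = 0.00852) and in treated mice (0.62, SE 0.16, edgeR adjusted p = 0.0314), the second lost, at 0.51 to 0.64, when uninjured replicate 1, 2 or 3 or treated replicate 1 or 4 was left out and, at 0.41 to 0.71, in 4 of 15 other settings. The more abundant receptor S1pr1 fell after injury (-0.29, SE 0.05, edgeR adjusted p = 0.00425) and was 0.22 higher with treatment than without (SE 0.05, edgeR adjusted p = 0.0107), but both signs turned with junction reads, at 0.029 and -0.29, and neither passed with limma on log2 TPM, at -0.13 and 0.07.

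The enzymes split. Aspg, an asparaginase raised in reactive astrocytes, was 3.09, 3.13, 2.95 and 2.95 CPM in uninjured, 5.60, 6.85, 6.14 and 6.27 in injured and 3.72, 4.77, 4.13 and 5.18 in treated mice. The treated mice lay between the other groups without overlap. Aspg rose 2.05-fold after injury (log2 fold change 1.03, SE 0.12, edgeR adjusted p = 0.000333), stood 0.55 above uninjured mice with treatment (SE 0.13, edgeR adjusted p = 0.0142, and no call at 0.46 when uninjured replicate 1 and treated replicate 4 were both left out or at 0.81 with junction reads) and fell by 0.48 from injured to treated mice (SE 0.11, edgeR adjusted p = 0.0106). It was the only member with a lower call in any comparison. That call did not pass with the GC and length trend removed (-0.27, edgeR adjusted p = 0.0956) or with junction reads (-0.33, edgeR adjusted p = 0.386), and Aspg had the highest GC content of the 10 members, 58.1%. Its intron reads were 22, 16, 12 and 21 in uninjured, 44, 33, 48 and 41 in injured and 16, 25, 22 and 14 in treated mice. By introns, therefore, injured mice were above both other groups without overlap, and treated and uninjured mice overlapped.

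Steap4, a metalloreductase of iron and copper that inflammation induces, was 2.29, 2.41, 3.09 and 1.68 CPM in uninjured, 3.57, 3.67, 3.61 and 3.55 in injured and 6.78, 6.19, 9.27 and 3.60 in treated mice. Treated replicate 4 lay within the narrow range of the injured mice, and the other 3 treated mice lay well above it. Steap4 was 1.45 above uninjured mice (SE 0.25, edgeR adjusted p = 0.00204) and 0.84 above injured mice with treatment (SE 0.23, edgeR adjusted p = 0.0201). After injury alone the difference of 0.60 did not pass (SE 0.26, edgeR adjusted p = 0.0992), although every injured mouse was above every uninjured one. That difference passed, at 0.60, without treated replicate 4, and the one between the injured groups, at 0.85, did not pass without injured replicate 4. In other settings the first passed in 5 of 14, at 0.55 to 0.77, and the second was lost in 3 of 14, those with limma on log2 TPM, at 0.50 to 0.60. Of its 3 relatives Steap1, Steap2 and Steap3, none was called after injury by edgeR or DESeq2, and 1 had an unadjusted p under 0.05. Steap1 rose between the injured groups (0.96, SE 0.22, edgeR adjusted p = 0.00908), from 1.46 ± 0.219 to 2.84 ± 0.842 CPM (SD, n = 4). Steap3 was higher in treated than in uninjured mice (0.41, SE 0.11, edgeR adjusted p = 0.0268) and than in injured mice (0.31, SE 0.10, edgeR adjusted p = 0.0496). The first was lost, at 0.33 to 0.41, when uninjured replicate 1, 3 or 4 or treated replicate 1 or 2 was left out, and the second, at 0.24 to 0.34, when any library but treated replicate 3 was left out. In other settings they were lost in 7 of 15, at 0.31 to 0.41, and in 10 of 15, at 0.11 to 0.32.

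Stat3, the transcription factor on which these signals converge, was 45.04, 45.04, 47.4 and 45.7 CPM in uninjured, 54.9, 48.8, 52.1 and 52.9 in injured and 47.98, 48.4, 57.3 and 45.04 in treated mice. Injured mice were above all uninjured mice, and treated mice spanned both groups. No comparison passed: the differences were 0.19 (SE 0.07, edgeR adjusted p = 0.0809), 0.12 (SE 0.07, edgeR adjusted p = 0.318) and -0.07 (SE 0.07, edgeR adjusted p = 0.533). The first has a 95% interval of 0.03 to 0.35 and was gained as a call in 6 alternative settings, among them the removed GC and length trend (0.16, edgeR adjusted p = 0.0482). STAT3 protein acts when phosphorylated, which RNA does not measure.

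Genes around Stat3 gave no uniform change. Of 7 interleukin-6 family cytokines in the tables only 3 had enough reads to test. Osm, the ligand of Osmr, had 10, 10 and 15 reads per group and Il6 had 3, 1 and 4. Cntf, a cytokine of astrocytes and Schwann cells, was the only ligand called, higher in treated than in uninjured mice by 0.90 (SE 0.20, edgeR adjusted p = 0.0133).

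The receptor chain Il6st, which encodes gp130, stood at 80.4 ± 8.13 (SD, n = 4), 77.9 ± 6.19 and 76.5 ± 13.3 CPM in uninjured, injured and treated mice, and the kinase Jak1 at 173 ± 11.4, 164 ± 5.20 and 157 ± 17.2. Among 5 receptor genes 2 rose and 1 fell after injury, none was called in treated against uninjured mice (nor by DESeq2 or at an unadjusted p under 0.05), and 1 fell between the injured groups. The receptor Cntfr, which binds Cntf, rose after injury (0.35, SE 0.06, edgeR adjusted p = 0.00235) and fell between the injured groups by 0.40 (SE 0.06, edgeR adjusted p = 0.000472). With the GC and length trend removed neither passed, at 0.028 (edgeR adjusted p = 0.821) and -0.18 (edgeR adjusted p = 0.076). Lifr fell after injury by 0.48 (SE 0.13, edgeR adjusted p = 0.0225), lost at -0.49 to -0.39 when uninjured replicate 1 or 4 or injured replicate 2, 3 or 4 was left out and, at -0.63 to -0.19, in 6 of 15 other settings. Jak2 fell by 0.27 after injury (SE 0.09, edgeR adjusted p = 0.0397), lost at -0.30 to -0.24 when uninjured replicate 1, 2 or 4, injured replicate 2, 3 or 4 or treated replicate 1 was left out and, at -0.29 to -0.063, in 8 of 15 other settings.

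Among 8 known STAT3 targets 4 rose and 1 fell after injury, 2 rose in treated against uninjured mice and 1 fell between the injured groups. Socs3, the feedback inhibitor, rose after injury by 0.59 (SE 0.18, edgeR adjusted p = 0.0348), lost at 0.52 to 0.64 when uninjured replicate 1, 2 or 4 or injured replicate 2, 3 or 4 was left out and, at 0.30 to 0.62, in 4 of 14 other settings. Bcl3, a cofactor of NF-kappaB, rose by 1.73 in injured (SE 0.33, edgeR adjusted p = 0.00517) and 1.71 in treated mice (SE 0.33, edgeR adjusted p = 0.00583), and Cebpd by 0.67 (SE 0.17, edgeR adjusted p = 0.018) and 0.77 (SE 0.17, edgeR adjusted p = 0.0141). The first value of Cebpd lost its call without uninjured replicate 1 or 4, at 0.60 and 0.57, and the second without treated replicate 1, at 0.67, and in 2 of 14 other settings, at 0.65 and 0.76. Junb, an AP-1 factor also induced by neuronal activity, was 44.6 ± 5.14 (SD, n = 4), 85.5 ± 5.96 and 47.5 ± 6.89 CPM. It rose after injury by 0.94 (SE 0.11, edgeR adjusted p = 0.000302) and fell between the injured groups by 0.85 (SE 0.11, edgeR adjusted p = 0.000241), with injured mice apart from both other groups.

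A STAT site was looked for by its letters in the RefSeq promoters of the members (build GRCm38.p6, 250 bases before to 50 after each start), because STAT3 is one of the members. The pattern TTCNNNGAA, which reads the same on both strands, was present in 2 of the 10 promoters, where 8.30% of 32851 promoters held it. The AP-1 pattern TGACTCA, or TGAGTCA on the other strand, was in none of the 10 and in 5.20% of all promoters. The windows below hold the matches in capitals, for Gfap at bases -2 to 7 from the start (chr11:102897191-102897262, minus strand) and for Steap4 at bases -116 to -108 (chr5:7960296-7960404, plus strand).
Gfap: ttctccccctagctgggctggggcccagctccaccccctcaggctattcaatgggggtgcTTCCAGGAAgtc
Steap4: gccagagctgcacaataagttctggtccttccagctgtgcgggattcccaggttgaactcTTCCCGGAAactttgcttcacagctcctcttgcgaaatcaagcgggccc
A match is a description of letters and says nothing of binding.

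Among further genes of reactive astrocytes, 4 that are raised in many kinds of injury were all tested. Of these 2 rose after injury, 4 in treated against uninjured mice and 3 between the injured groups. Timp1, an inhibitor of matrix metalloproteinases, was 0.682 ± 0.138 (SD, n = 4), 1.32 ± 0.250 and 2.99 ± 0.986 CPM, a rise of 0.94 (SE 0.29, edgeR adjusted p = 0.0365) followed by 1.17 (SE 0.24, edgeR adjusted p = 0.00435). The first step was lost, at 0.80 to 1.03, when uninjured replicate 1, 3 or 4, any 1 injured mouse or treated replicate 2 was left out and, at 0.70 to 0.95, in 4 of 15 other settings. The chaperone Hspb1 rose by 0.75 (SE 0.14, edgeR adjusted p = 0.0056) and was not called between the injured groups, at 9.57 ± 0.413 and 10.2 ± 2.11 CPM (SD, n = 4). The chemokine Cxcl10 stood at 0.517 ± 0.208 (SD, n = 4), 0.795 ± 0.323 and 2.08 ± 0.289 CPM and was 1.38 higher in treated than in injured mice (SE 0.28, edgeR adjusted p = 0.00429), but it passed the filter on low counts only through the treated mice.

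Lists that earlier studies tied to inflammatory (A1) and ischaemic (A2) reactive astrocytes each had 11 of 12 genes tested. In the A1 list 4 rose after injury, 7 in treated against uninjured mice and 4 between the injured groups, and none fell. In the A2 list 2 rose and 1 fell after injury, 6 rose in treated against uninjured mice and 2 rose between the injured groups, with Ptx3 tested only through its reads in treated mice. DESeq2 called 3, 6 and 1 of the A2 genes higher and 1, 1 and 0 lower in the same order. At an unadjusted p under 0.05, 4, 8 and 6 were higher and 1, 1 and 0 lower. Serping1, an inhibitor of complement, rose by 0.69 after injury (SE 0.10, edgeR adjusted p = 0.0018) and by a further 0.63 with treatment (SE 0.10, edgeR adjusted p = 0.000975), and the transglutaminase Tgm1 rose by 1.55 after injury (SE 0.28, edgeR adjusted p = 0.00407). Emp1, an A2 gene also made by other cells, was higher with treatment (0.86, SE 0.16, edgeR adjusted p = 0.00255, against injured mice), and the A2 gene Ptgs2, which neurons also make, fell after injury by 0.79 (SE 0.14, edgeR adjusted p = 0.00424). Srgn, an A1 gene that leukocytes also make, went from 6.48 ± 0.808 to 12.1 ± 1.39 CPM (SD, n = 4) between the injured groups (difference 0.90, SE 0.11, edgeR adjusted p = 0.000205).

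Genes of resting astrocytes were called mostly higher after injury and mostly lower between the injured groups. Of 18, 4 rose and none fell after injury by edgeR, 1 rose in treated against uninjured mice, and 1 rose and 5 fell between the injured groups. Of all tested genes 11.9%, 6.30% and 10.9% were called higher and 11.0%, 3.22% and 10.7% lower in the same order. The median log2 fold change of the 18 was 0.19, 0.04 and -0.03, where that of all tested genes was 0.03, 0.01 and 0.01. DESeq2 called 5 higher and 2 lower after injury, and 2 higher and 1 lower in treated against uninjured mice. At an unadjusted p under 0.05, 10 were higher and 2 lower after injury, and 3 higher and 2 lower in treated against uninjured mice. Acsbg1, an acyl-CoA synthetase, rose by 0.22 after injury (SE 0.06, edgeR adjusted p = 0.0183), lost at 0.17 to 0.22 when uninjured replicate 4 or injured replicate 2 or 4 was left out and, at 0.040 to 0.20, in 3 of 15 other settings, and fell by 0.38 between the injured groups (SE 0.06, edgeR adjusted p = 0.000875). The connexin Gjb6 was the one that rose with treatment, by 0.36 against injured mice (SE 0.10, edgeR adjusted p = 0.0181), and it was at -0.010 with junction reads and did not pass, at 0.20, with limma on log2 TPM.

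Markers of blood-borne, connective tissue and muscle cells gave these counts. Of 8 tested monocyte and macrophage genes 3 rose after injury, 7 in treated against uninjured mice and 5 between the injured groups. Ccr2 was tested only through its reads in treated mice. The summed level of all 10 listed genes, tested or not, was 80.3 to 91.1, 175 to 204 and 349 to 444 TPM in the 3 groups. The macrophage gene Ms4a7 rose by 1.06 between the injured groups (SE 0.23, edgeR adjusted p = 0.00634). Of 10 fibroblast genes 5 rose after injury, 7 in treated against uninjured mice and 8 between the injured groups, and the collagen gene Col3a1 went from 10.6 ± 0.830 to 128 ± 8.23 CPM (SD, n = 4), a log2 difference of 3.59 (SE 0.09, edgeR adjusted p = 7e-11). The 8 muscle genes were called higher in both comparisons with treated mice, although 4 of them (Ckm, Myh4, Tnnt3 and Mb) passed the filter only through those mice, and none was called after injury alone by edgeR, by DESeq2 or at an unadjusted p under 0.05. Of 10 microglia genes 2 rose and 2 fell after injury, 2 rose in treated against uninjured mice, and 3 rose between the injured groups. How much of the higher Vim, Lcn2, Cd44 and Steap4 in treated mice these cells carry was not tested.

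The 4 treated mice differed among themselves in a way that ran across members. Replicate 3 was the highest treated mouse for Cd44, Osmr, Steap4 and Stat3 and the lowest for Gfap, Vim, Serpina3n, Lcn2 and S1pr3. Replicate 4 was the highest for Gfap, Vim, Lcn2 and Aspg and the lowest for Osmr, Steap4 and Stat3. Removing the trend of each library with GC content and transcript length narrowed this spread for some members: the SD of log2 CPM over the treated mice went from 0.22 to 0.08 for Lcn2, from 0.15 to 0.04 for Osmr, from 0.15 to 0.05 for Stat3 and from 0.20 to 0.11 for Vim. It stayed at 0.11 for Gfap and at 0.55 for Steap4 and widened for Serpina3n (0.09 to 0.11) and S1pr3 (0.08 to 0.10). In injured mice it widened for Lcn2, from 0.13 to 0.22, and Serpina3n, from 0.06 to 0.10. It narrowed there for Stat3, from 0.07 to 0.03. Among uninjured mice it widened for Stat3 (0.04 to 0.10), Aspg (0.04 to 0.10) and Serpina3n (0.04 to 0.06) and narrowed for Vim (0.15 to 0.11). With the trend removed 8, 10 and 6 members were called higher in the 3 comparisons and none lower, where 6.55%, 9.27% and 9.61% of all genes were called higher and 7.82%, 9.25% and 8.23% lower. Cd44 and Stat3 joined the calls after injury, and between the injured groups Gfap joined while Vim and Aspg left.

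**Figure D4:**
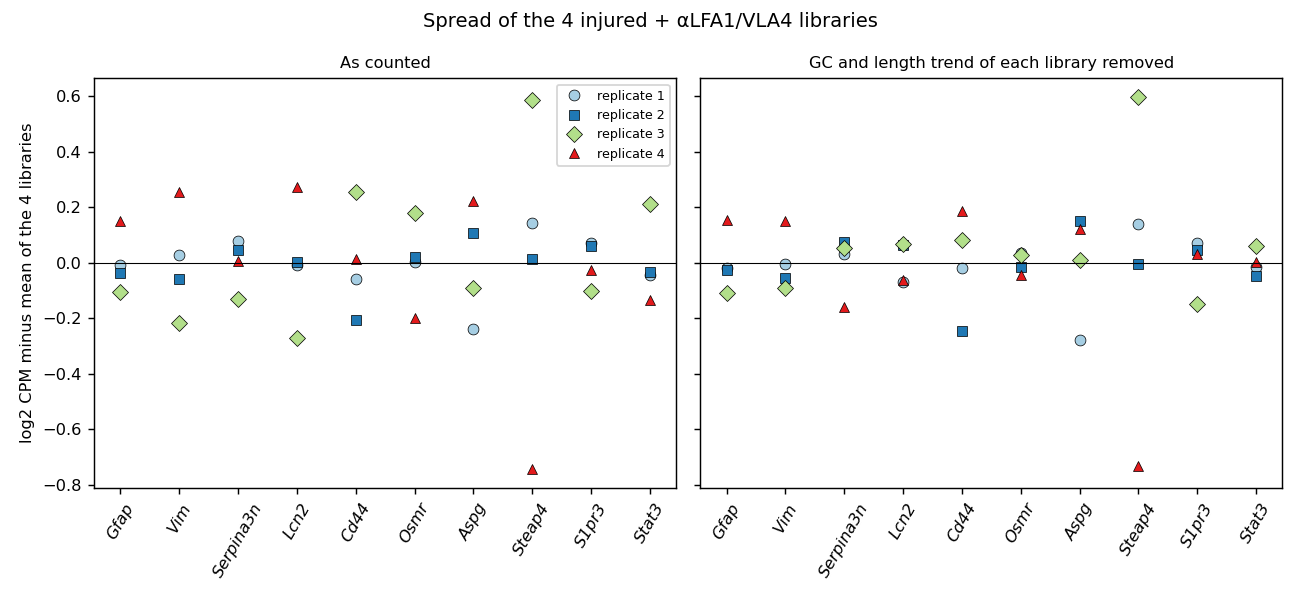
Log2 CPM of each gene in the 4 treated mice, minus the mean of the 4 (y axis), as counted (left) and with the GC and length trend of each library removed (right). Symbols are the replicates. The spread narrowed for Lcn2, Osmr, Stat3 and Vim, widened for Serpina3n and S1pr3, and Steap4 kept its low replicate 4 and its high replicate 3.

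Compared per transcript length, the higher members kept much the same order in the 3 groups, and the lowest 4 changed places. In uninjured mice Gfap led with 194 ± 7.54 TPM (SD, n = 4), followed by Vim at 62.2 ± 5.47, Serpina3n at 37.98 ± 1.56 and Stat3 at 17.6 ± 0.501. Lcn2 at 7.83 ± 0.581 and S1pr3 at 6.94 ± 0.126 came next, and the lowest 4, Aspg at 2.50 ± 0.109, Osmr at 2.45 ± 0.498, Cd44 at 1.94 ± 0.107 and Steap4 at 1.78 ± 0.377 TPM, included neighbours that did not differ beyond their spread. In treated mice Lcn2, at 44.1 ± 4.69 TPM, stood above Stat3 at 19.3 ± 3.21, and Vim at 126 ± 10.99 and Serpina3n at 117 ± 4.86 overlapped. Summed over the 10 members the level was 319 to 348 TPM in uninjured, 703 to 805 in injured and 730 to 779 in treated mice, a sum in which Gfap is the largest part, so it hides the steps of Lcn2 and Serpina3n.

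Members also differed in how alike their courses were over the 12 mice. As a measure, the log2 CPM of each gene was centred on its own uninjured mean, and the mean absolute difference between 2 genes was taken over the 12 libraries. The closest pair was S1pr3 and Stat3 at 0.13, 2 genes that moved little, followed by Gfap and Vim at 0.19, Gfap and Serpina3n at 0.21 and Gfap and Aspg at 0.24. The farthest pair was Lcn2 and Stat3 at 1.07. Among 13884 genes with at least 1 CPM in uninjured mice, those nearest to Gfap were Agt at 0.08, which encodes angiotensinogen of astrocytes, Lag3 at 0.11, the complement gene C4b at 0.12, the class I gene H2-D1 at 0.14 and the complement gene C1qa at 0.14, a gene of microglia. C4b stood at 40.7, 96.6 and 96.6 CPM on average in the 3 groups and Agt at 15.1, 35.0 and 32.5, near a doubling in both injured groups like that of Gfap. This likeness follows from the choice, because the genes were picked for it over these same mice.

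In the genome (GRCm38, whose gene starts and ends matched GENCODE M21), Gfap lies on chr11:102887336-102900912 and Stat3 on chr11:100885098-100939540, both on the minus strand. Vim (chr2:13573927-13582826, plus), Lcn2 (chr2:32384633-32388252, minus) and Cd44 (chr2:102811141-102901665, minus) share a chromosome, as do Serpina3n (chr12:104406729-104414329, plus) and Aspg (chr12:112106679-112127559, plus). Osmr is on chr15:6813577-6874969 (minus), Steap4 on chr5:7960457-7982213 (plus) and S1pr3 on chr13:51408639-51422797 (plus). Reads were summed over all exons of each gene, from 2 exons for S1pr3 to 33 for Stat3, untranslated parts included. Exons of Stat3 overlap those of Stat5a on the other strand over 72 bases, 0.756% of its exon bases, and those of S1pr3 overlap Gm32834 over 45 bases, or 1.01%. The sources do not say whether counting was by strand. Reads in these short stretches are therefore uncertain, and the other 8 members overlap no exon of another gene.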

How the data were processed

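Total RNA libraries of 12 mice (4 per group, 500 ng of RNA in a kit that keeps strand, per the labels' protocols) were read from the tables the authors deposited. Per the submitters' processing notes, the tools included Trimmomatic 0.39, FastQC 0.11.8 and CASAVA 1.8.2, with build GRCm38. The aligner and counter were not stated in any source at hand. The deposited counts are whole numbers of exon, intron and junction reads per gene, and the deposited TPM values follow from total exon reads and exon length.

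Exon read counts were tested with edgeR 4.0.16 in R 4.3.3: filterByExpr, TMM scaling, 1 quasi-likelihood model of group over the 12 libraries together (9 residual degrees of freedom), two-sided, Benjamini-Hochberg over 14771 genes at 0.05. CPM are reads scaled to the effective library size. The labels call the samples biological replicates. The members and all gene lists were chosen with earlier results of these data known. All 10 members are named; of each other list the 3 genes of smallest p may be named, with direct partners of members and the 5 genes nearest to Gfap. The scripts were tested on simulated counts.

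Alternatives were DESeq2 1.42.0 size factors and Wald test, library size alone, tests of unfiltered genes or of genes at 1 CPM in at least 4 libraries, only the compared groups, a replicate block, a GC and length trend removed (mgcv 1.9.3), limma 3.58.1 on log2 TPM with a pseudocount of 0.1 or 1, unique reads and each library left out. Junction reads alone, and the removal of both ends of the first principal component, were chosen after seeing the data.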

Additional observations from a re-analysis of the deposited data

Results flagged for a closer look

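In 2 of 30 groups of 4 libraries (10 genes in 3 groups) 1 mouse stood apart from the other 3, by a gap to its nearest neighbour above Dixon's 95% limit for 4 values, which chance exceeds in about 1 in 20 groups. Serpina3n was lowest in uninjured replicate 1, at 31.5 CPM against 33.1, 33.2 and 33.2 in the other uninjured mice (a gap of 0.925 of the range), and this mouse was one end of the first principal component. S1pr3 was highest in injured replicate 4, at 17.9 CPM against 15.4, 15.6 and 15.7 (a gap of 0.856 of the range). Without injured replicate 4 the difference of S1pr3 between the injured groups turned to 0.032.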

How the results depend on the processing

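Counts of members higher ran from 3 to 8 after injury, from 4 to 10 in treated against uninjured mice and from 2 to 6 between the injured groups over all settings. The share of all genes called higher ran from 0.402 to 33%, 2.15 to 13.8% and 2.75 to 13.9% in the same order. With junction reads they were 3, 4 and 2, against 0.402%, 2.15% and 2.75% of genes, with 0 lower between the injured groups, against 1.49%. With limma on log2 TPM, in all 3 versions, 3 were higher between the injured groups, on a scale that moved the median of all genes by 0.18, 0.02 and -0.15 with a pseudocount of 0.1. Of all genes 4.39% (pseudocount 0.1), 4.55% (pseudocount 1) and 3.43% (pseudocount 0.1, unfiltered) were called higher there. Leaving out 1 library gave 6 to 7, 7 to 8 and 3 to 6 higher, where 4.61 to 16.3%, 4.3 to 13.8% and 7.08 to 13.2% of genes were. The 3 came when injured replicate 4 was missing, where 7.08% of genes were called higher. Once the GC and length trend was removed, alone or with the replicate block, 0 were lower between the injured groups, where 8.23% and 6.41% of genes were.

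Higher calls made up 51.9% of all calls after injury, and 76.0% with library size alone or 93.6% on TPM. In treated against uninjured mice the shares were 66.2%, 86.3% and 87.3%, and between the injured groups 50.5%, 43.8% and 15.6%. Over the settings, genes called higher numbered 48 to 4869, 257 to 2054 and 329 to 2062, and genes called lower 18 to 2511, 45 to 1915 and 178 to 3531. The lowest counts came from junction reads, with fewer genes and reads.

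Whether replicate numbers pair the mice could not be settled. Of 12 pairs with the same number, 2 had deviations from the group means correlated over 0.1 (range -0.53 to 0.43). Pairs with different numbers ran from -0.57 to 0.60, and with 4 libraries per group such deviations are not independent. With the replicate block 6, 8 and 5 members were higher and 1 was lower between the injured groups, against 8.65%, 4.62% and 8.36% of genes higher and 7.60% lower there. With the block and the GC and length trend removed 8, 10 and 4 were higher, against 5.31%, 7.68% and 7.75%.

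Signs turned only for values near 0, apart from those with junction reads. For Osmr after injury the values with 1 library left out ran from -0.066 (injured replicate 1) to 0.14, with -0.063 and -0.025 when uninjured replicate 2 or 4 was missing, and junction reads gave -0.30. For Gfap between the injured groups they ran from -0.056 to 0.045, above 0 when injured replicate 2, 3 or 4 or treated replicate 2 or 3 was missing. It was 0.0047 in both DESeq2 settings, 0.012 unfiltered, 0.0014 with unique reads and 0.17 once the GC and length trend was removed, with or without the block. S1pr3 there ran from -0.059 to 0.032, above 0 when injured replicate 4 or treated replicate 3 was missing, and was 0.050 with the trend removed and 0.051 with the block as well. Stat3 was 0.052 and 0.051 in these 2 fits. With junction reads Stat3 in treated against uninjured mice was -0.12, S1pr1 was 0.029 after injury and -0.29 between the injured groups, and Gjb6 was -0.010 there. The cause was not tested. Junction reads also ended the calls on Hspb1, Serping1, Tgm1, Ptgs2 and Sphk1 after injury and on Timp1, Srgn and Steap1 between the injured groups, and leaving out both ends of the first principal component ended those on Cntf (0.74) and Bcl3 (1.45) in treated against uninjured mice.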

Other observations

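Lists of other cells gave mixed counts beside the members. Of 10 endothelial genes 1 rose and 2 fell after injury and 1 rose and 1 fell in treated against uninjured mice by edgeR. Of 8 mural genes 2 fell after injury, and 1 rose and 1 fell between the injured groups. Of 8 oligodendrocyte genes 3 fell after injury, 1 fell in treated against uninjured mice, and 2 rose and 1 fell between the injured groups. Of 8 neuronal genes 1 rose and 4 fell after injury, 2 fell in treated against uninjured mice, and 2 rose and 3 fell between the injured groups. Of 8 genes of ependyma and choroid plexus 1 rose and 1 fell after injury, 1 rose in treated against uninjured mice and 4 rose between the injured groups. Of 8 striatal genes 3 fell after injury and 3 rose between the injured groups, and of 8 thalamic genes 6 rose after injury and 5 in treated against uninjured mice, with 1 lower between the injured groups. Only 2 of 10 lymphocyte genes had enough reads to test, and 1 fell in each comparison with uninjured mice. Counted by library over all 10, 1 was higher and 1 lower without overlap after injury. In treated against uninjured mice 6 were higher and 1 lower, where 9.01% and 6.56% of tested genes were. Between the injured groups 5 were higher and 0 lower, where 10.6% and 11.4% of tested genes were. Most of the 10 had too few reads to test, so these counts rest on low levels.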
